A study of Mus musculus with 2 samples.

Results

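The alpha-defensin locus of the mouse is described here through its splice junctions, the pairs of genome positions that a sequenced read joins across a gap. All junctions on chromosome 8 of build mm9 whose start and end both lay between positions 21500000 and 23500000 were taken from the deposited junction list. There were 3888 of them among 446811 junctions of the whole series, or 0.87%, and they held 1697275 of 43037344 junction reads, or 3.94%. The RNA came from adult C57BL/6J mice, an inbred strain, aged 8 weeks, with no treatment or altered allele named. Tissue labelled large intestine was taken from littermates of both sexes, and polyA RNA over 200 nt was sequenced as stranded read pairs of 76 nt. There were 2 libraries, replicate 2 and replicate 1, and 1 group, so no conditions were compared. The labels name separate biosamples but do not say how many mice each pools.

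Alpha-defensins, called cryptdins in mice, are small cationic peptides that kill microbes and are secreted by Paneth cells at the base of the small intestinal crypts. In mice the protease Mmp7 cuts the inactive precursor to release the peptide. The genes are short and lie side by side as many near-identical copies. A single intron separates a first coding exon, for the signal and pro-segment, from a second that encodes the mature peptide. A defensin mRNA therefore holds 1 junction between coding exons. Junctions of the array that span more than 5000 nt, longer than a gene, are called between-gene here, wherever in the copies their ends lie, and shorter ones within-gene.

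The list is on mm9, for which no annotation was used here, so genes were named by matching intron lengths. Of the array's junctions of at most 5000 nt, 24 carried the tag A = 1, whose meaning the sources used here do not state. All 24 could be paired, in order and by strand and intron length, with introns annotated on mm10, and each had 1 possible partner. Of the 23 distances between neighbouring introns, 22 were equal to the base in both builds. The exception was the distance from Defa29 to Gm7849, which was 100333 nt on mm9 and 129540 nt on mm10. RefSeq, on GRCm38, lists Gm14851, Gm15293, Gm15292, Gm7849 and Gm7861 as defensin genes too, under the symbols Defa38, Defa41, Defa40, Defa42 and Defa43. Defa-ps6 and Defa-ps1 are annotated as pseudogenes.

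The joined ends of the coding exons are shown first because the between-gene counts are set beside them below. Each line holds the last 38 bases of exon 1 in lower case and the first 38 bases of exon 2 in capitals, 76 bases in all, which is the read length. They are coding sequence of the GENCODE annotation on mm10, read 5′ to 3′ on the gene's strand, and positions in them are counted from 1 at the 5′ end.
Defa20: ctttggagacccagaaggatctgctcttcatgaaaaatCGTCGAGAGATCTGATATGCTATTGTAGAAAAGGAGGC
Defa21: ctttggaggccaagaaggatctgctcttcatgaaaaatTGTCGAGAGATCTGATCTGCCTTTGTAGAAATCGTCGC
Defa22: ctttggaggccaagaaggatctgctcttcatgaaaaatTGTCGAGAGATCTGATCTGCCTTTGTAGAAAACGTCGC
Defa31: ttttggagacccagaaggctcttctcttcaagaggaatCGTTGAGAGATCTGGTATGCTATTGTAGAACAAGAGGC
Defa30: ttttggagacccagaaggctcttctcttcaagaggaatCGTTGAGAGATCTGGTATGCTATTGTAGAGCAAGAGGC
Defa3: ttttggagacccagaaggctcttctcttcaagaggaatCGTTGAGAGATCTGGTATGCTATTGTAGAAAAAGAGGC
Defa24: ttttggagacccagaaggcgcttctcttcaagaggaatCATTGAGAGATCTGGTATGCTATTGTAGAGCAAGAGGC
Defa35: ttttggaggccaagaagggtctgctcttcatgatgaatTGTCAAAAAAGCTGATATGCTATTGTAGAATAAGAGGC
Defa5: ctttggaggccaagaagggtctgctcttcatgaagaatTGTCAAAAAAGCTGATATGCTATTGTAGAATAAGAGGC
Defa29: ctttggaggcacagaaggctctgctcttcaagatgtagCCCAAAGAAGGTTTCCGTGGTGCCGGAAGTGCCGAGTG
Gm14851: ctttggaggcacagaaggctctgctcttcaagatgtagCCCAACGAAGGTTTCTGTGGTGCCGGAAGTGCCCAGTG

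The 76 bases of Defa20 were also those of Defa32, Defa2 and Defa33. Those of Defa31 were also those of Defa23, those of Defa3 also those of Defa17, and those of Defa5 also those of Defa34. Defa21 and Defa22 differed by T70A alone, in exon 2. Defa31 differed from Defa30 by A68G alone and from Defa3 by C69A alone, again in exon 2. Defa35 differed from Defa5 by T1C and T34A, both in exon 1. Defa29 differed from Gm14851 by A44C, C54T and G72C, all in exon 2. Over the 24 genes with a paired intron there were 18 different joined sequences, and 12 genes shared theirs with another gene of the 24. On mm10 the introns removed lie at chr8:21509473-21510027 for Defa20, chr8:21025760-21026313 for Defa21 and chr8:21162492-21163045 for Defa22, all on the plus strand.

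Before the results, 2 features of the data bear on all of them. Each junction carries a first and a second read count, which sum to its reads, and the sources used here do not say which library each count stands for. They are called the second field and the first field below, never replicates. The series held 22732327 reads in the second field and 20305017 in the first field, but the locus took 6.82% of the second-field reads and 0.724% of the first-field reads. Against the tissue label, both libraries held high levels of Paneth cell markers: lysozyme Lyz1 had 6826 TPM in replicate 2 against 4597 in replicate 1, and Mmp7 had 396 and 178 TPM in the same order. TPM is a level corrected for transcript length and library depth. All 9 Paneth markers were above 10 TPM in both libraries, but Defa24, Defa17 and Defa22 among them are genes of the array itself. The lowest value was that of Defa22 in replicate 1, 15.1 TPM, against 8600 TPM in replicate 2. The colonocyte marker Car1 was at 0.27 TPM in replicate 2 and 0.23 in replicate 1, and Aqp8 at 0.04 TPM in both. The other colonocyte markers had higher values: Slc26a3 had 20.96 TPM in replicate 2, against 43.46 in replicate 1, and Saa1 had 355 TPM, against 3.22. The 5 enterocyte markers ranged over 9.94 to 5279 TPM in replicate 2 and 152 to 1094 TPM in replicate 1. In a bulk sample, fewer cells of a type and less RNA per cell cannot be told apart.

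Nearly all of the locus was the defensin array itself. The array, taken as the 24 gene introns with 1000 nt on either side, covered mm9 positions 22164439 to 22846739, or 682301 nt. It held 3520 of the 3888 junctions and 99.8% of the reads. A further 106 junctions with 3266 reads lay after the array, among them introns whose lengths matched 8 other genes such as Atp7b, which encodes a copper transporter, and the kinase gene Nek3. Another 248 junctions with 419 reads had only 1 end in the array or spanned it, none with more than 14 reads, and 14 junctions with 59 reads lay before it.

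Within the array, 62.9% of the reads lay in junctions short enough to be counted as within-gene. Junctions of at most 5000 nt, counted as within-gene, numbered 387 and held 1064614 reads. Junctions over 5000 nt, counted as between-gene, numbered 3133 and held 628917 reads. Between-gene junctions thus made up 37.1% of the array's reads, with an exact binomial 95% interval of 37.1 to 37.2%. Such intervals cover counting error only, and they assume reads that are independent molecules, which reads without molecular identifiers are not. The share and its interval also take each read as counted at a single junction, which the sources used here do not state. In the rest of the series 10.7% of reads lay in junctions over 5000 nt, a figure that includes the long introns of other genes. Among reads after the array the share was 5.14%.

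The length limit set almost none of this, since hardly any junction lay near it. Lengths from 500 to 700 nt, the size of defensin introns, held 209 junctions with 1059823 reads. Lengths from 700 to 5000 nt held 26 junctions with 86 reads, and those from 5000 to 10000 nt held 11 junctions with 165 reads. Beyond that, 10000 to 100000 nt held 318451 reads, 100000 to 200000 nt held 147867 reads, and longer gaps held 162434 reads. The junctions on either side of the limit were 4503 nt long with 2 reads, starting at the Defa35 donor, and 5989 nt long with 1 read.

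The fields differed in this share. In the second field 64.1% of the array's reads were within-gene and 35.9% between-gene (95% interval 35.8 to 36.0%), and in the first field 49.6% were within-gene and 50.4% between-gene (50.2 to 50.7%). With 1 value per field there is no replicate check of that difference.

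The within-gene reads came almost wholly from the 24 gene introns, which were 418 to 628 nt long and held 1059667 of the 1064614 within-gene reads. Defa20 was the most covered, with 281242 reads in the second field and 292 in the first field across its intron at mm9 chr8:22619945-22620499. Defa32 followed with 269265 second-field and 291 first-field reads. Defa21 had 100095 second-field reads and none in the first field, and Defa22 had 95387 and none. These introns, all of genes for secreted cryptdin peptides, were covered almost only in the second field. Against a floor of 3 reads, scaled to field totals, the second field was at least 29802-fold higher for the Defa21 intron and at least 28400-fold higher for the Defa22 intron. These bounds are for own introns alone: the Defa21 and Defa22 donors joined the Defa20 acceptor with 521 and 531 first-field reads.

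Defa24 had 76003 second-field and 972 first-field reads. Defa17 had 26856 second-field and 18562 first-field reads, and Defa3 had 26645 and 18512 in the same order. Defa34 had 13955 second-field and 5946 first-field reads. Defa37 had 19856 second-field and 2 first-field reads, and Defa31 had 12568 second-field and 7057 first-field reads. The 5 most covered introns held 77.7% of all reads over gene introns. Defa-ps1, a pseudogene, had the fewest, 20 second-field reads and none in the first field.

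Junctions of the array leaned to the second field far more often than junctions in general. Called means a fold of at least 2 on the log2(reads + 1) scale after scaling to the field totals, over junctions with at least 10 reads. The second field was called higher for 71 of 85 within-gene junctions, or 83.5%, and the first field for 2. It was called higher for 244 of 350 between-gene junctions, or 69.7%, and the first field for 62. Over all 130634 such junctions of the series, 5.58% were called higher in the second field and 18.3% lower in it. The minimum counts both fields together, so a junction high in 1 field alone passes it. The first field was at 0 in 47 of the 85, 164 of the 350 and 555 of all such junctions. The second field was at 0 in 1, 23 and 739, in the same order. Of the 85 within-gene junctions, 61 were not gene introns. Of the 24 gene introns, 16 were called higher in the second field, 7 were within 2-fold, and only Defa35 was called lower, with 157 second-field and 1698 first-field reads. After the array, 1 of 54 junctions was called higher in the second field and 25 lower.

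**Figure D1:**
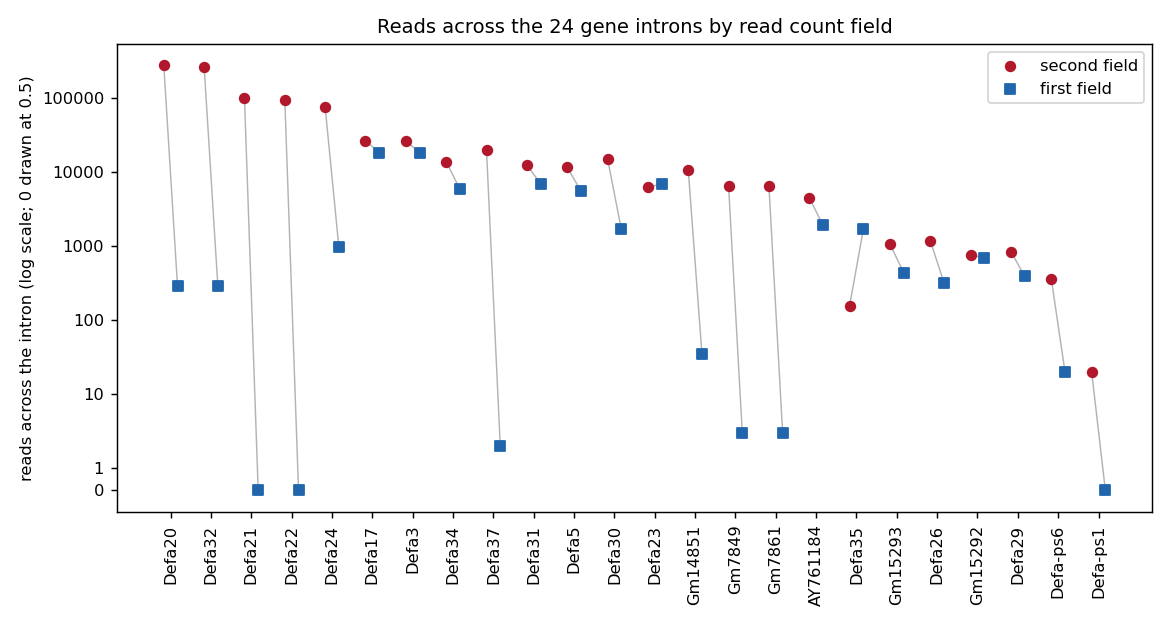
Reads across each of the 24 gene introns (log axis, 0 drawn at 0.5), with second-field reads as red circles and first-field reads as blue squares, ordered by their sum. Defa21, Defa22 and Defa-ps1 had no first-field reads, and Defa35 and Defa23 were the genes with more first-field than second-field reads.

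Among the 6 pairs of genes with equal joined sequences, some had nearly equal counts in both fields and others did not. The second field held 59.1% of the reads of Defa17 and 59.0% of those of Defa3, although 339710 nt separate the Defa3 donor from the Defa17 acceptor. Gm7849 had 6569 second-field and 3 first-field reads, and Gm7861 had 6566 and 3. Defa5 had 11708 second-field and 5618 first-field reads, close to the 13955 and 5946 reads of Defa34. Defa31 and Defa23 were less alike: Defa31 had 12568 second-field and 7057 first-field reads, and Defa23 had 6341 and 6948. Gm15292 had 774 second-field and 689 first-field reads, or 52.9% in the second field, and Defa26 had 1188 and 323, or 78.6%.

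Between-gene reads used the same splice sites. The donor, the end of exon 1, and the acceptor, the start of exon 2, were both those of gene introns for only 131 of the 3133 between-gene junctions, but these held 602682 reads, or 95.8% of the between-gene reads (95% interval 95.8 to 95.9%). A further 158 junctions with 3408 reads used a gene donor alone, and 54 with 4524 reads a gene acceptor alone. The other 2790 junctions used neither and held 18303 reads. As gene order and strand allow, an upstream exon 1 could be joined to a downstream exon 2 in 181 pairs of genes, of which 131 had a junction and 85 had at least 10 reads.

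The most covered between-gene junction ran from the Defa20 donor to the Defa32 acceptor, over 20330 nt. It had 269259 second-field and 291 first-field reads, within 6 reads of the Defa32 intron in each field. The junction from Defa21 to Defa22 spanned 137286 nt with 96866 second-field reads and none in the first field, again like the introns of both genes. The junction from Defa3 to Defa17 spanned 339710 nt with 26646 second-field and 18527 first-field reads. It passed over 8 other gene introns, and its counts in each field lay close to those across the introns of Defa17 and Defa3 given above. The junction from Defa5 to Defa34 spanned 339712 nt and had 11707 second-field and 5618 first-field reads, against 11708 and 5618 across the Defa5 intron.

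On the minus strand, which holds 5 of the gene introns, the junction from Gm7861 to Gm7849 had 6567 second-field and 3 first-field reads. That from Defa29 to Gm14851, between genes whose exon 1 ends were equal, had 9569 second-field and 23 first-field reads. It thus held 771% as many reads as the Defa29 intron, which had 852 second-field and 392 first-field reads, and 87% as many as the Gm14851 intron, with 10932 and 35. All 10 possible minus-strand pairs had a junction, and 121 of 171 plus-strand pairs.

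**Figure D2:**
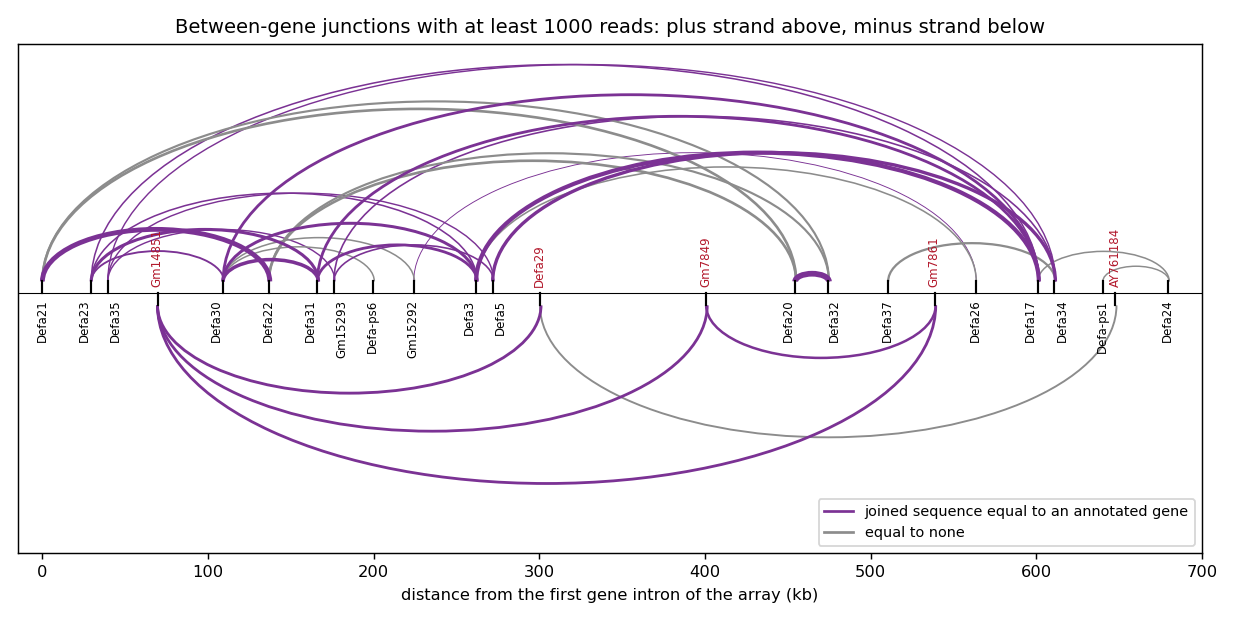
Map of the 34 between-gene junctions with at least 1000 reads and both ends at gene splice sites, by distance in kb from the first gene intron; ticks mark gene introns, arcs join donor and acceptor, thicker arcs hold more reads, and purple arcs have a joined sequence equal to that of an annotated gene. Of the 34 arcs 23 were purple, and they spanned up to 572085 nt.

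**Figure D3:**
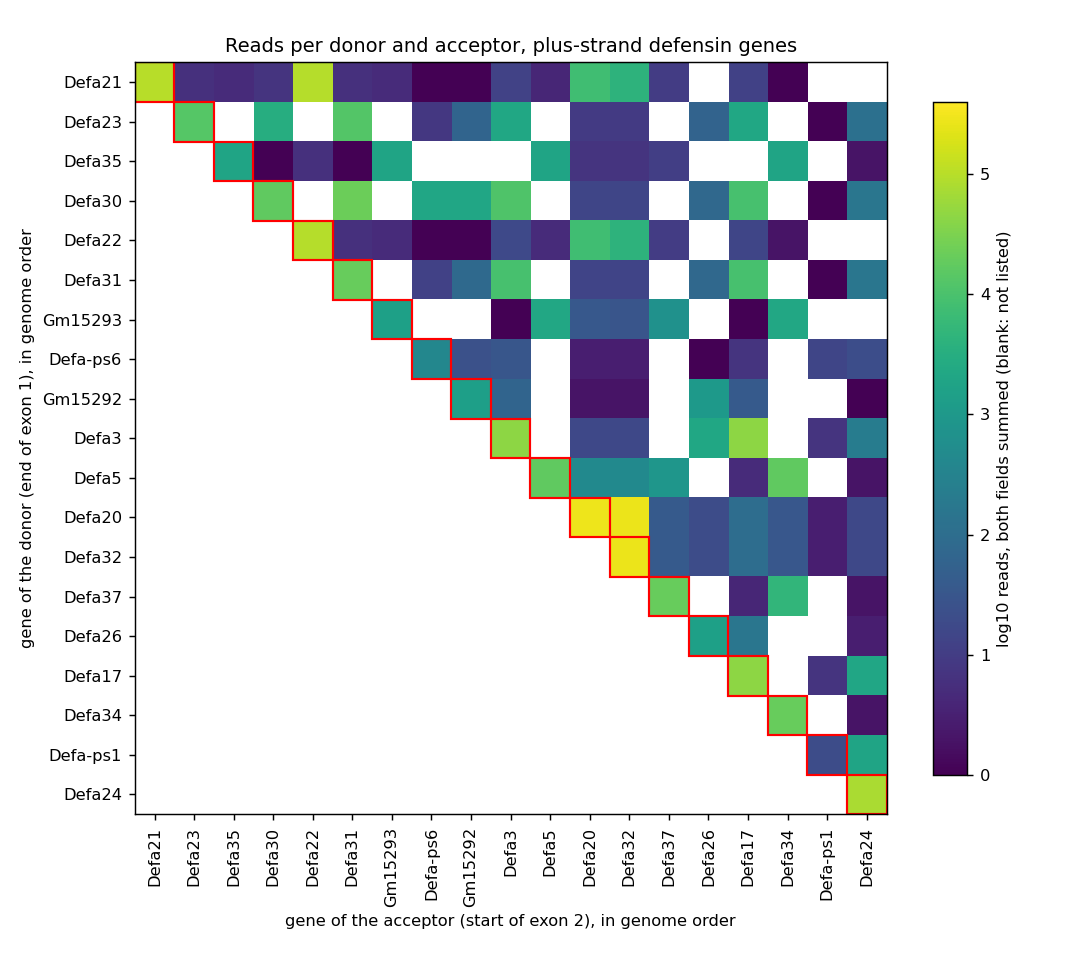
Reads, as log10 of both fields summed, for each donor (rows) and acceptor (columns) of the 19 plus-strand genes in genome order, with each gene's own intron in the red boxes and pairs not listed left blank. Joined pairs with counts like the boxes included Defa20 to Defa32, Defa21 to Defa22 and Defa3 to Defa17.

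Reads between genes were mostly few unless the joined sequence was one that an annotated gene also has. For each of the 181 pairs, the donor gene's 38 bases and the acceptor gene's 38 bases were put together and compared with the joined sequences of 42 annotated transcripts with 2 exons. The result was equal to an annotated gene's in 26 pairs, all of which had at least 10 reads. These 26 pairs held 555622 reads, or 92.2% of the reads over gene pairs (95% interval 92.1 to 92.3%). Their median was 98.8% of the reads of the less covered partner's own intron. The 155 pairs whose sequence no annotated gene has held 47060 reads, with no reads in 50 of them and at least 10 in 59. Their median was 4 reads a pair, against 7782 for the 26 pairs. As a share of the less covered partner's own intron, the median of the 155 was 0.0677%, with a range of 0 to 9545%. The sources used here do not state how a read that matches several places in the genome was counted, and its part in these counts was not tested.

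The medians kept the same order along the length of identity, though the ranges overlapped. For each pair, the longer of the stretches over which both exon 1 ends, or both exon 2 starts, were identical from the splice site on was taken. With fewer than 10 identical bases, the median of 116 pairs was 0.0219% of the lower own intron. It was 4.38% for 21 pairs with 10 to 19 bases, 6.3% for 18 pairs with 20 to 39 bases and 68.2% for 18 pairs with 40 to 75 bases. From fewest to most bases, the ranges of these 4 groups were 0 to 15%, 0.262 to 9545%, 1.83 to 533% and 15.9 to 154%. For the 8 pairs with 76 or more identical bases it was 100%, with a range of 93.2 to 771%. The pairs share donors, acceptors and libraries, so this is a description without a test.

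**Figure D4:**
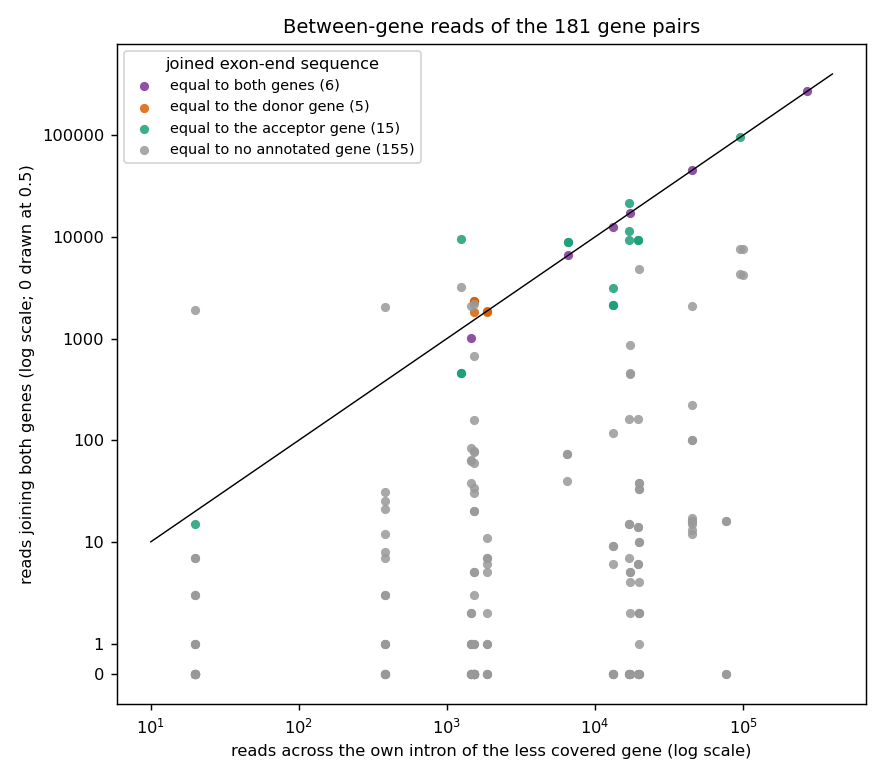
Reads joining 2 genes against reads across the own intron of the less covered gene, both on log axes with 0 drawn at 0.5, for the 181 gene pairs, coloured by which gene's joined sequence the pair's equals; the line marks equal reads. The 26 coloured pairs lay near or within 10-fold of the line, and most of the 155 grey pairs lay far below it.

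Among the 26 pairs, 6 had a sequence equal to that of both partners and 352025 reads. In another 15 it was equal to that of the acceptor gene only, with 193447 reads, and in 5 to that of the donor gene only, with 10150 reads. In the last 20 pairs the second-field share could be set against each partner. It was closer to the partner of equal sequence in 15 pairs, farther from it in 4 and equally near to both in 1, with a median gap of 2.3 percentage points to that partner and 30.3 to the other. The 20 pairs share donors and acceptors, so they are not separate observations, and some were closer by little. Gm7849 and Gm7861 to Gm14851 had equal counts, with gaps of 0.0857 and 0.188 points.

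Defa35, the gene called lower in the second field, is an example. Its exon 2 start was that of Defa5, Defa34 and Gm15293, so its exon 1 joined to theirs equalled its own sequence over the 76 bases compared. The junction from Defa35 to Defa5 had 147 second-field and 1697 first-field reads, that to Gm15293 had 135 and 1697, and that to Defa34 had 124 and 1696, in the same order. The Defa35 intron had 157 and 1698. All followed Defa35, with 6.81 to 7.97% of reads in the second field, where the partners' own introns had 67.6 to 70.8%.

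Defa30 to Defa31 was the only pair with more reads than both partners' own introns. It had 13135 second-field and 8529 first-field reads, against 15240 and 1715 across the Defa30 intron and 12568 and 7057 across the Defa31 intron. Its joined sequence was that of Defa31 and Defa23, and its second-field share of 60.6% lay near the 64.0% of Defa31 and far from the 89.9% of Defa30. Defa30 to Defa3 and Defa30 to Defa17, which spell the sequence of Defa3 and Defa17, did not follow it: their second-field shares were 82.7 and 94.8%, against 59.0 and 59.1% across those genes' own introns. Defa31 to Defa3 and Defa31 to Defa17, which spell the same sequence, had 94.6 and 94.8% in the second field, far from those shares and from the 64.0% of Defa31 alike.

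Some pairs had many reads without such a match. Defa22 to Defa20 had 7101 second-field and 531 first-field reads, and Defa21 to Defa20 had 7091 and 521. Defa22 to Defa32 had 3744 second-field and 530 first-field reads, and Defa21 to Defa32 had 3733 and 520. The nearest annotated sequence, that of Defa20 and Defa32, differed from these at 2 bases. The first-field counts of 520 to 531 exceeded those of every own intron involved, which were 0 for Defa21 and Defa22, 292 for Defa20 and 291 for Defa32. Defa37 to Defa34 had 2154 second-field and 2720 first-field reads, although the Defa37 intron had 2 first-field reads; its sequence was 1 base from those of both genes.

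Defa-ps1 to Defa24 had 1480 second-field and 429 first-field reads, where the own intron of the pseudogene had 20 and none. A junction of 152069 nt from an unnamed donor to the same Defa24 acceptor, at mm9 chr8:22693671-22845739, had exactly the same counts. Defa29 was joined from AY761184, annotated as protein-coding, by 2211 second-field and 1023 first-field reads, at 1 base from both genes' sequences.

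Pairs without an equal sequence had most of their reads at 1 or 2 mismatches from the nearest annotated sequence, with no steady order between the steps. There were 33 pairs at 1 mismatch with 19652 reads and a median of 73, and 15 at 2 mismatches with 25754 reads and a median of 5. The 14 pairs at 3 mismatches held 334 reads, the 11 at 4 held 1021 and the 12 at 5 held 203, with medians of 14, 20 and 14. The 39 pairs at 6 mismatches held 74 reads in all, and the 31 pairs at 7 or more held 22. The 25754 reads at 2 mismatches came mostly from the 4 junctions into Defa20 and Defa32 named above.

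Reads did not fall steadily with distance along the array either. Junctions between neighbouring gene introns numbered 8 and held 270302 reads, almost all of them between Defa20 and Defa32. Passing over 4 gene introns, 13 junctions held 114752 reads, and passing over 8, 12 junctions held 85530. Passing over 6, 6 junctions held 55 reads. The longest with at least 10 reads ran from Defa23 to Defa24 over 650808 nt and 21 gene introns, with 42 second-field and 76 first-field reads.

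Single donors joined many acceptors. At 10 or more reads, the Defa20 donor joined 15 acceptors, Defa35 14, Defa30 13, and Defa32, Defa31 and Defa5 12 each. Of 164 array donors with such a junction, 24 had at least 5 acceptors, or 14.6%. The share was 0.127% over the 121297 donors of the whole series, where the median was 1. The Defa24 donor, the last on its strand, had no paired acceptor downstream and kept 99.9% of its reads within its gene. Among donors with copies downstream, Defa30 kept 26.7%, Defa21 47.9%, Defa22 88.8% and Defa32 99.8%. A listed junction runs from an upstream donor to a downstream acceptor, so only copies downstream count in these shares. Defa20, which lies upstream of Defa32 and has its joined sequence, kept 51.0%. Defa21 likewise lies upstream of Defa22.

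Away from the gene splice sites, most between-gene reads, though not most junctions, joined corresponding places in different copies. Of the 2790 junctions with neither end at a gene splice site, 1170, or 41.9%, had ends that lay at the same offset, within 5 nt, from the same side of 2 genes' introns. They held 13035 of 18303 reads, or 71.2%, and 53.4% of the reads had offsets equal to the base. The most covered joined Defa21 to Defa22 80 and 79 nt after their acceptors, within exon 2, with 1251 second-field reads and none in the first field.
In a further set, 4 junctions left Defa35 124 nt before its donor and entered Defa30, Defa31, Defa3 and Defa17 at the same offset before theirs, so they joined exon 1 to exon 1. Each had 1 second-field read, and between 728 and 735 first-field reads. On the minus strand, junctions from AY761184 to Defa29, Gm7861 and Gm7849 also had both ends 124 nt before the donors, with 265 to 326 second-field and 44 to 45 first-field reads. Of the remaining junctions, 896 with 2563 reads had an end over 600 nt from any gene intron. The offset rule was chosen after these junctions had been seen.

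Other short junctions were minor. Besides the gene introns, 363 within-gene junctions held 4947 reads. The most covered of them, from the Gm15293 donor over 667 nt, had 505 second-field and 2 first-field reads. It was followed by a minus-strand junction of 176 nt at mm9 chr8:22371565-22371740, with 461 second-field reads and none in the first field, which was not among the paired introns. The same end at position 22371740 was joined to the Gm14851 acceptor by 1061 second-field and 18 first-field reads. Defa34 and Defa5 each had a second junction 1 nt shorter than the own intron, with 122 second-field and 73 first-field reads for Defa34, and 93 and 66 for Defa5. A single between-gene junction carried the tag A = 1: it ran 26931 nt from the Defa32 donor and had 282 second-field reads and none in the first field.

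The array also held more junctions seen once than the rest of the series. Of its 3520 junctions 52.1% had 1 read, and 8.69% had reads in both fields. In the rest of the series, 42.4% had 1 read and 40.6% had reads in both fields.

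Contigs, stretches of continuous coverage in a second mm9 list, differed in level between copies with equal joined sequences, by more in some pairs than in others. Their level is a deposited signal, with no definition in the sources used here. The array held 81 of the locus's 288 contigs, and all 24 gene introns had one at an end. The highest level at Defa21 was 935, at Defa24 807, at Defa37 484 and at Defa22 308. At Defa20 it was 165, but at Defa32, whose intron had nearly as many reads, it was 3.93. At Defa34 it was 87.1 and at Defa5 1.33. The other pairs of equal joined sequence lay closer. The level was 20.4 at Defa17 and 11.7 at Defa3, and 1.56 at Gm7849 and 0.596 at Gm7861. It was 38.6 at Defa26 and 22.9 at Gm15292, and 10.6 at Defa31 and 3.22 at Defa23.

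The gene tables, made by the authors on mm10, divided the reads among copies differently again. Summed over the 22 numbered Defa genes, replicate 2 had 85241.5 TPM and replicate 1 had 17603.8 TPM. Of the 16 with a mean of at least 1 TPM, 10 were at least 2-fold higher in replicate 2 on the log2(TPM + 1) scale and 1 was lower. Over all 13512 genes at that level, 1.18% were that much higher in replicate 2 and 4.46% lower. With 1 library on each side these folds have no replicate check.

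Defa33, a copy paired with no junction of the mm9 list, had the highest level, 29978.7 TPM in replicate 2 against 0.19 in replicate 1. On mm10 it lies, like Defa2, between Defa29 and Gm7849, the neighbours whose distance differed between the builds. Whether mm9 holds this copy was not tested. Defa20 had 7228 TPM in replicate 2 and was listed at 0 in replicate 1, and Defa32 had 4552 TPM and was listed at 0. Defa2, which has the same joined sequence, was listed at 0 in both. The 4 genes with that sequence came to 353265 expected counts in replicate 2 and 1 in replicate 1. Their counts thus stood almost wholly in replicate 2, and over the mm9 junctions of Defa20 and Defa32 almost wholly in the second field.

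Defa21 had 9814 TPM in replicate 2 and was listed at 0 in replicate 1, and Defa22 had 8600 TPM in replicate 2 against 15.1 in replicate 1. Gm7861 had 5985 TPM in replicate 2 and was listed at 0 in replicate 1, while Gm7849, with the same joined sequence and nearly the same junction counts, had 11.6 and 7.7 TPM. Defa31 had 0.51 TPM in replicate 2 and was listed at 0 in replicate 1, although 19625 reads crossed its intron on the junction list. Defa23, its equal, had 3594 TPM in replicate 2 against 3004 in replicate 1.

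Defa3 had 5504 TPM in replicate 2 against 7562 in replicate 1, and Defa17, of equal sequence, had 368 and 216 TPM. Defa30 had 2616 TPM in replicate 2 against 380 in replicate 1. Defa37 had 1872 TPM in replicate 2 against 26.8 in replicate 1, and Defa34 had 109 and 0.8 TPM. Defa35, the gene that was lower, had 14.7 TPM in replicate 2 against 608 in replicate 1.

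Like Gm7849 and Defa34 above, Defa24 was not equally far apart in both sources. Its level was 9564 TPM in replicate 2 against 5012 in replicate 1, under 2-fold apart, and its expected counts were 114038.6 and 45913. Across its intron the second field held 76003 reads and the first field 972. The libraries and fields cannot be matched from the sources used here, so these values are given side by side only.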

How the data were processed

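The 2 libraries were polyA RNA-seq of mouse tissue. The junction list holds read counts deposited as whole numbers on mm9, pooled for the series, per the accompanying notes; aligner and caller were not given in the sources used here. Each contig's level is a deposited signal. A deposited score per junction and per contig was not used. Gene tables, on mm10 with GENCODE M4 per the accompanying notes, hold expected counts, TPM and FPKM estimated by the authors. Depth was 58233142 expected counts in replicate 2 and 50189619 in replicate 1.

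Junctions were classed by length (limit 5000 nt). Naming genes by ordered pairing of intron lengths with GENCODE M21 was chosen after seeing the data, as were the joined-sequence comparison (38 bases a side) and the offset rule. No position was converted between builds. Shares have exact binomial 95% intervals for counting error; with 1 field or library a side no p-value was computed. The fold call, the ordered pairing and the interval were tested on simulated data. The simulated intron lengths were drawn at random, whereas many gene introns here had equal lengths. The joined-sequence comparison and the offset rule were not simulated. The rule for named items took the 10 within-gene and the 10 between-gene junctions with most reads, the 5 donors with most partners, the longest between-gene junction with at least 10 reads, the junctions nearest to the limit, the 10 genes with the highest mean TPM and those at least 100-fold apart; others were named after their values were seen. Members and lists were chosen with earlier results of these data known. Sequences came from the GENCODE transcripts. Alternatives were other limits, read minimums, scalings, pseudocounts, single fields or libraries, FPKM and posterior means. Intervals used scipy 1.17.1 and figures matplotlib 3.10.9, with pandas 2.3.3 and numpy 2.4.6 in Python 3.11.15.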

Additional observations from a re-analysis of the deposited data

How the results depend on the processing

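The share of array reads in between-gene junctions, 37.1%, was 37.0% over junctions with at least 10 reads, 35.5% when only junctions from the donor of one core junction to the acceptor of another counted, and 35.9 to 50.4% in a single field. Limits of 2000 and 10000 nt left it within its interval. The 3133 between-gene junctions became 1451 with at least 2 reads, 350 with at least 10 reads, 126 between core junctions (those with the most reads in each overlapping group of short junctions, at least 100), and 931 to 2464 in a single field. Their share called higher in the second field, 69.7%, was 54.1% with at least 50 reads. Summed TPM of the Defa genes, on average 51422.6, was 17603.8 to 85241.5 with 1 library left out; with 2 libraries such a value cannot lie beyond 1 SD of the mean. Among alternatives chosen after seeing the data, 30 and 50 bases a side gave equal joined sequences to 94.1 and 92.0% of gene-pair reads, against 92.2%. Offsets equal to the base held 53.4% of the reads off the gene splice sites, against 71.2% within 5 nt. Leaving those values of single libraries aside, 20 of 32 alternatives stayed within the interval, within 1 SD or within 1.5 times the count. No paired analysis was possible because there is 1 group. Depth limits the pairs with few reads: with a median of 4 reads, 1 pair cannot be ranked against another.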
